A study of Homo sapiens with 2 samples.

Results

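Translation initiation factor mRNAs were taken as the protein-coding genes of GENCODE on GRCh37 whose symbol begins with EIF followed by a digit. A cytosine was counted for a gene when it lay on an exon of its basic transcripts, on the same strand, and had a coverage of at least 10, which is the sum of its unconverted and converted counts. The annotation holds 56 such genes among 20149 protein-coding genes. Of these, 50 had at least 1 covered cytosine in MCF10A against 43 in MDA-MB-468, so that MCF10A gave 9536 of its 1584002 covered cytosines and MDA-MB-468 gave 6059 of its 1271253. The data come from RNA BS-Seq, in which poly(A)-selected RNA was treated with sodium bisulfite at 60 degrees for 8 hours. Bisulfite turns unmodified cytosine into uracil and leaves 5-methylcytosine (m5C) as it is, so the methylation ratio of a cytosine is its unconverted counts over all its counts. MCF10A is a normal mammary epithelial cell line and MDA-MB-468 comes from a breast cancer, both untreated and of human origin, and each is represented by 1 library with no replicate. The labels name DMEM for both lines, whereas the methods name DMEM/F12 for MCF10A and RPMI for MDA-MB-468, so that line, library and medium cannot be told apart.

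The covered cytosines were covered 18 times in the median in either line, with 60580227 counts in MCF10A against 42429746 in MDA-MB-468. The nonconversion background, the share of unconverted counts over all covered cytosines, was 1.99% in MCF10A against 1.81% in MDA-MB-468. The paper gives a higher background and fewer m5C sites for each line. It first removed sites in predicted secondary structures, which was not done here, so the m5C sites below are not the set of the paper. Epithelial identity was looked at by coverage only. Of 7 epithelial markers, 4 had covered cytosines in MCF10A against 6 in MDA-MB-468. KRT5, KRT8, KRT17 and KRT18 were covered in both lines, EPCAM and CDH1 in MDA-MB-468 only, and KRT14 in neither. Of 4 markers of other cells, the fibroblast gene DCN was covered in MCF10A with 156 cytosines and the collagen gene COL1A1 in MDA-MB-468 with 267, while the endothelial marker PECAM1 and the leukocyte marker PTPRC had none in either line. Their part in the results was not tested.

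Initiation factors bring the small ribosomal subunit, the initiator tRNA and the mRNA together and place the ribosome at a start codon. The eIF4F complex binds the cap and unwinds the 5′UTR, eIF2 carries the initiator tRNA, eIF3 forms the scaffold of the preinitiation complex, and eIF1, eIF1A and eIF5 govern the choice of the start codon. Several of their own mRNAs are under translational control. The mRNA of eIF1 is the best known of them, since its start codon lies in a poor context and its translation answers to the amount of eIF1. m5C in mRNA is placed mainly by enzymes of the NSUN family, and bisulfite also leaves cytosines unconverted where the RNA stays folded.

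The following 30-nt windows hold the densest m5C sites of 5 mRNAs on which the results turn. Each is the reference sequence of GRCh37 on the strand of the gene, written 5′ to 3′ with T for U, and the capitals mark the cytosines that were called m5C in the line named. They are shown because called cytosines next to other cytosines can be read off directly. A lower-case cytosine was either covered and not called or not covered.
EIF1, 5′UTR, chr17:39845211-39845240 (+), both lines: CCCCCCtgCCCgCCttCtCCCgCCaCCgCC
EIF2AK4, CDS, chr15:40226399-40226428 (+), MCF10A: ggctgggggCCgtggggCCCCCgggcgcgg
EIF4EBP2, 5′UTR, chr10:72164098-72164127 (+), MCF10A: ccccggccccgCCgCCgCCgcctgcccgcc
EIF3D, CDS, chr22:36915485-36915514 (-), MCF10A: CtgcggagCatCaagCgCatCttCCaCaCt
EIF2S3, 3′UTR, chrX:24095314-24095343 (+), MDA-MB-468: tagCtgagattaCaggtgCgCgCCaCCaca
All 21 cytosines of the EIF1 window were called. In EIF4EBP2 6 of 21 covered cytosines were called, in EIF3D 10 of 11, in EIF2AK4 7 of 8 and in EIF2S3 8 of 9. The EIF2AK4 window also holds lower-case cytosines that were not covered. Searched over both strands of the genome with up to 3 mismatches, the windows of EIF1, EIF2AK4 and EIF3D occurred 1 time each and that of EIF4EBP2 4 times. The EIF2S3 window occurred 26115 times, of which 6 were exact, and whether its reads came from copies elsewhere in the genome was not tested.

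A cytosine was called m5C when its unconverted counts exceeded the background of its library by a one-sided Fisher's exact test with a Benjamini-Hochberg adjusted p below 0.05 over all covered cytosines. In MCF10A 122 of 9536 cytosines of initiation factor mRNAs were called, 1.28% (95% Wilson interval 1.07% to 1.53%), against 0.847% over all mRNA cytosines and 0.96% over all covered cytosines. In MDA-MB-468 99 of 6059 were called, 1.63% (95% Wilson interval 1.34% to 1.99%), against 0.73% over all mRNA and 0.84% over all covered cytosines. The EIF1 mRNA alone held 65 of the 122 sites and 64 of the 99. Without EIF1 the shares were 57 of 9295 cytosines (0.613%, interval 0.474% to 0.794%) and 35 of 5841 (0.599%, interval 0.431% to 0.832%). Both were lower than those of all mRNA, although the latter interval includes the value of all mRNA. EIF1 was left out after its calls were seen, whereas all mRNA kept its genes with the most calls. This choice lowers the shares by itself. Later comparisons of all mRNA with the set without EIF1 have the same limit. The pooled methylation ratio, all unconverted counts over all counts, was 2.98% in MCF10A against 3.19% in MDA-MB-468, and 2.21% and 2.0% without EIF1. The intervals cover counting error only. They treat counts and sites as independent although 1 read gives counts at several cytosines, so they are too narrow.

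At least 1 m5C site was found in 13 of the 50 covered genes in MCF10A and in 9 of the 43 in MDA-MB-468, where 21.1% and 16.9% of all covered protein-coding genes had one. At least 3 sites were found in 10 genes of MCF10A and 4 of MDA-MB-468, against 12.4% and 10.2% of all covered genes. Over both lines 15 genes carried m5C, of which 7 did so in both. The other 35 covered genes had no m5C site in either line. No covered cytosine was found for EIF4E, the cap-binding protein itself, nor for EIF1AY, EIF3CL, EIF4E1B, EIF4E3 and EIF5A2. EIF1B, EIF2AK3, EIF2AK4, EIF3C, EIF3J, EIF4ENIF1 and EIF4G3 were covered in MCF10A only. The number of counts a call needs set what could be seen. At a coverage of 10 a call needed 4 unconverted counts in each line, a ratio of 40%, and at a coverage of 100 it needed 9 in MCF10A against 10 in MDA-MB-468.

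EIF1 encodes the small factor that keeps the scanning ribosome from starting at wrong codons. Its m5C sites formed a single block in the 5′UTR, which is 154 nt long on the representative transcript. In MCF10A the block ran from nucleotide 11 to 133 (chr17:39845147-39845269), and all 65 covered cytosines in it were called. In MDA-MB-468 it ran from nucleotide 16 to 133 (chr17:39845152-39845269), and all 64 were called. The cytosine at nucleotide 11 had 8 unconverted counts of 9 in MDA-MB-468, below the coverage minimum. Within the block the methylation ratio ranged from 22.8% to 90.5% in MCF10A with a median of 70.6%, and from 30.8% to 95.1% in MDA-MB-468 with a median of 72.9%. The best covered m5C site of MCF10A, at nucleotide 58, had 101 unconverted counts of 122 (82.8%), and in MDA-MB-468 93 of 105 (88.6%). Of the 66 sites called in both lines at a ratio of at least 0.2 in each, 64 were in EIF1, and so were the 12 best covered.

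**Figure D1:**
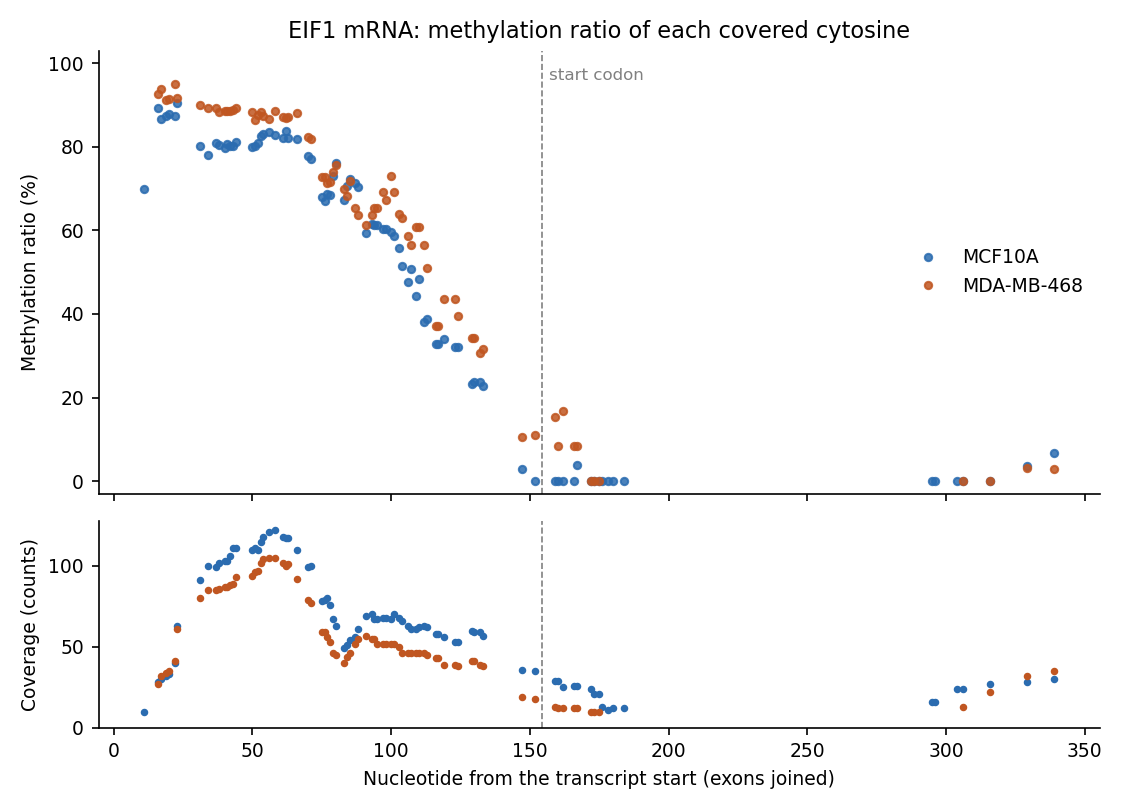
Methylation ratio (upper panel, percent) and coverage (lower panel, counts) of each cytosine covered at least 10 times in the 5′ part of the EIF1 mRNA, by nucleotide from the transcript start, in MCF10A (blue) and MDA-MB-468 (orange); the dashed line marks the start codon. Ratios lie between 78.0% and 95.1% from nucleotide 16 to 66, decline towards nucleotide 133, and are at most 16.7% from nucleotide 147 on.

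The ratio declined along the EIF1 block in both lines. In MCF10A the first 21 cytosines had a median ratio of 80.8%, the 23 that followed 71.4%, and the last 21 38.7%. In MDA-MB-468 the corresponding medians were 88.8%, 72.3% and 56.5%, over 21, 22 and 21 cytosines. No single cytosine stood out from its neighbours. Neighbouring cytosines had nearly the same counts, as at nucleotides 40, 41 and 42, with 82 of 103, 83 of 103 and 85 of 106 unconverted in MCF10A. Whether the same reads carried them was not tested, because reads were not analysed here. The block was drawn from the first to the last called EIF1 cytosine of each line. The remaining covered EIF1 cytosines, 176 in MCF10A against 154 in MDA-MB-468, thus hold no call by definition, and no upper limit is given. The pooled ratio was 68.4% inside the block and 1.72% outside it in MCF10A, and 76.0% and 2.01% in MDA-MB-468. Because calls set the ends of the block, part of this contrast follows from that choice. Just after the block, at nucleotide 147, 1 of 36 counts was unconverted in MCF10A against 2 of 19 in MDA-MB-468. In the EIF1 CDS the pooled ratio was 2.09% and 4.75%, and in the 3′UTR 1.64% and 1.45%.

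Among all covered protein-coding genes EIF1 was the highest by m5C sites in the 5′UTR in each line. By m5C sites over the whole mRNA it had rank 7 of 8854 genes in MCF10A and rank 3 of 8086 in MDA-MB-468. By pooled ratio it had rank 21 of 7266 genes with at least 20 covered cytosines in MCF10A and rank 2 of 6431 in MDA-MB-468, where the median gene had 1.79% and 1.45%. Of the 64 cytosines called in both lines, 59 had the higher ratio in MDA-MB-468 and 5 the lower, with a median difference of 6.25 percentage points and a range from -6.86 to 18.4. None of these differences passed the test between the libraries. The lowest unadjusted p was 0.0481 by Fisher's exact test, and the adjusted p was 1. Across the 64 cytosines the ratios of both lines had a Pearson correlation of 0.974, which describes 1 stretch of neighbouring sites that share reads.

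Most m5C sites in 5′UTRs were those of EIF1. In the 5′UTR 79 of 1049 cytosines (7.53%) were called in MCF10A against 65 of 536 (12.1%) in MDA-MB-468, where 2.24% and 1.95% of all mRNA 5′UTR cytosines were called. EIF1 accounted for 65 and 64 of these sites. Without it, a choice made after its calls were seen, 14 of 982 (1.43%) and 1 of 470 (0.213%) were called. Their intervals were 0.851% to 2.38% and 0.0376% to 1.20%, and only the latter lies below the share of all mRNA. In the CDS 34 of 6913 (0.492%, interval 0.352% to 0.686%) and 10 of 4195 (0.238%, interval 0.13% to 0.438%) were called. Over all mRNA the values were 0.615% and 0.551%, of which the interval of MCF10A includes its own. In the 3′UTR 9 of 1574 (0.572%) were called in MCF10A, with an interval of 0.301% to 1.08% that includes the 0.837% of all mRNA. In MDA-MB-468 24 of 1328 (1.81%, interval 1.22% to 2.68%) were called, above the 0.739% of all mRNA. Of these 24 sites 15 were in EIF2S3, 8 in EIF3I and 1 in EIF4EBP1. The share fell to 0.863% when genes with near-identical copies, EIF2S3 among them, were left out, and to 0.993% without cytosines of a predicted pairing probability over 0.5.

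**Figure D2:**
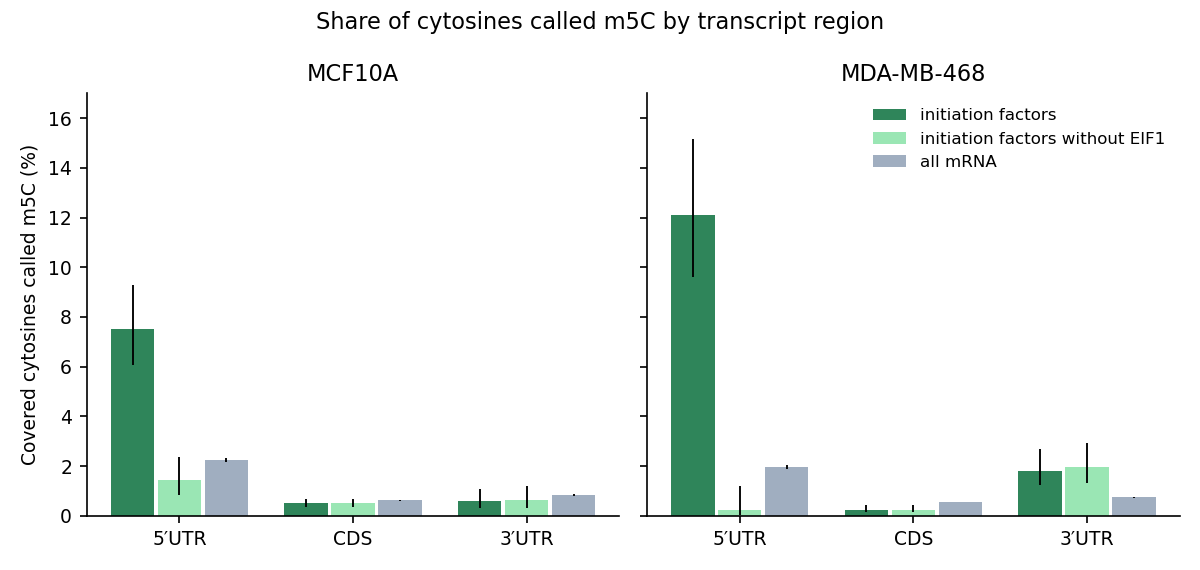
Share of covered cytosines called m5C (percent) in the 5′UTR, CDS and 3′UTR for initiation factor mRNAs (dark green), the same without EIF1 (light green) and all mRNA (grey), with 95% Wilson intervals, in MCF10A (left) and MDA-MB-468 (right). The 5′UTR bars of 7.53% and 12.1% drop to 1.43% and 0.213% when EIF1 is left out.

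The other factors of start codon selection had no m5C site. EIF5, which makes eIF2 hydrolyse its GTP, had 102 covered cytosines in MCF10A with a pooled ratio of 4.45% (95% Wilson interval 3.60% to 5.49%) and 142 in MDA-MB-468 with 3.54% (2.90% to 4.32%). Both intervals lay above the background of the library although no single cytosine was called. EIF1AX, the X-linked gene of eIF1A, had 36 and 15 covered cytosines with 0.71% and 0%, and EIF1B, a close relative of EIF1, had 10 covered cytosines in MCF10A with 2.21%. Together these genes gave 0 calls in 148 cytosines of MCF10A and 157 of MDA-MB-468, which allows up to 2.03% and 1.91%. Such limits, here and below, treat cytosines as independent although 1 read gives counts at several, so they are too low. Even so they lie above the 0.847% and 0.73% of all mRNA, so the counts of 0 do not set these genes apart.

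Among the genes of eIF2 and of other tRNA carriers, m5C was found in EIF2S3, which encodes the GTP-binding gamma subunit, and in EIF2S2, which encodes the beta subunit. EIF2S3 had 4 m5C sites of 215 covered cytosines in MCF10A against 15 of 193 in MDA-MB-468, and its pooled ratio was 2.61% and 6.69%. All of them were in the 3′UTR. From nucleotide 1765 to 1785 all 6 covered cytosines were called in MDA-MB-468, at 30.6% to 58.5% with coverages of 31 to 49. The same 6 cytosines had 13.3% to 20.8% in MCF10A with coverages of 13 to 30, and 3 of them were called. The highest was nucleotide 1779, with 5 of 24 counts unconverted in MCF10A against 24 of 41 in MDA-MB-468. Another group of 8 cytosines from nucleotide 1847 to 1870, in the window shown above, had 62.5% to 75% in MDA-MB-468 at coverages of 12 to 16. In MCF10A 7 of these positions had 3 unconverted counts of 7, below the minimum, and the other was not in the file. The best covered site of EIF2S3, at nucleotide 1912, stood alone and had nearly equal ratios in both lines, 14 of 69 (20.3%) and 16 of 81 (19.8%). EIF2S2 had a single m5C site in its 5′UTR, with 4 of 18 counts (22.2%) in MCF10A against 0 of 12 in MDA-MB-468. EIF2S1, EIF2A, EIF2D and EIF2S3B, a retrocopy whose reads cannot be separated from those of EIF2S3 with certainty, had none.

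The 5 genes of eIF2B, the factor that reloads eIF2 with GTP, had no m5C site in 389 covered cytosines of MCF10A or 340 of MDA-MB-468, which allows up to 0.771% and 0.882%. These limits are too low for the reason given above, and over all mRNA 0.847% and 0.73% were called. The pooled ratios of the eIF2B genes, 1.68% and 2.04%, were close to the background. Of the 4 kinases that phosphorylate eIF2alpha under stress, EIF2AK4, which encodes the amino acid sensor GCN2, had 7 m5C sites among 456 covered cytosines in MCF10A. It had no covered cytosine in MDA-MB-468. The 7 sites formed 1 group near the start of the CDS, from nucleotide 93 to 105, and had 61.1% to 86.7% at coverages of 15 to 21. The best covered had 13 of 21 counts unconverted, and the highest, at nucleotide 101, 13 of 15. They lie in the G- and C-rich window shown above and had a predicted pairing probability of 0.859 to 0.964. EIF2AK1, EIF2AK2 and EIF2AK3 had no m5C site, and the 147 cytosines of these kinases covered in MDA-MB-468 allow up to 2.04%.

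The eIF3 genes had 18 m5C sites in MCF10A, in EIF3A, EIF3B and EIF3D, and 13 in MDA-MB-468, in EIF3B and EIF3I. Their share of called cytosines was 18 of 2975 (0.605%) and 13 of 2004 (0.649%), where 0.847% and 0.73% of all mRNA cytosines were called. EIF3D, a subunit with cap-binding activity, had 11 sites in the CDS in MCF10A from nucleotide 750 to 782, at 22.7% to 30.8%. Each of the 11 had 4 or 5 unconverted counts at coverages of 13 to 22, and the best covered had 5 of 22. None of these positions had an entry in MDA-MB-468, where EIF3D was covered at 236 other cytosines. EIF3I, a subunit with a WD-repeat fold, had no m5C site among 200 covered cytosines in MCF10A and 11 among 145 in MDA-MB-468. Of these, 8 lay between nucleotides 1035 and 1059 in the 3′UTR, with 23.3% to 38.9% in MDA-MB-468 and 1.30% to 9.09% in MCF10A. The other 3, at nucleotides 1087, 1089 and 1090, are in the CDS of another transcript and had 26.9% to 32.0% against 6.98% to 8.11%. All 11 were picked as called in MDA-MB-468 and none was called in MCF10A, so part of the gap follows from that choice. In EIF3B, a scaffold subunit, 3 neighbouring cytosines at nucleotides 358 to 362 had 8.99% to 12% in MCF10A and 0% to 1.52% in MDA-MB-468. Its best covered m5C site had 9 of 91 counts unconverted in MCF10A. Another at nucleotide 1327 had 5 of 29 counts (17.2%) in MCF10A, where MDA-MB-468 had 1 of 25. The EIF3B sites called in MDA-MB-468 had 6 of 34 counts (17.6%) at nucleotide 279 and 6 of 47 (12.8%) at nucleotide 488. There MCF10A had 3 of 57 and 1 of 64. All these EIF3B sites were picked as called in 1 line, so part of each gap follows from that choice. The same limit holds for the other genes compared at sites called in 1 line. Only sites of EIF3I passed the test between the libraries. EIF3A, which encodes the largest subunit, had 3 single sites in MCF10A, of which the best covered had 8 of 79 counts (10.1%) and 5 of 83 (6.02%) in MDA-MB-468. EIF3C, EIF3E, EIF3F, EIF3G, EIF3H, EIF3J, EIF3K, EIF3L and EIF3M had no m5C site. EIF3C and EIF3CL are near-identical, and EIF3C had 7 covered cytosines in MCF10A alone.

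**Figure D3:**
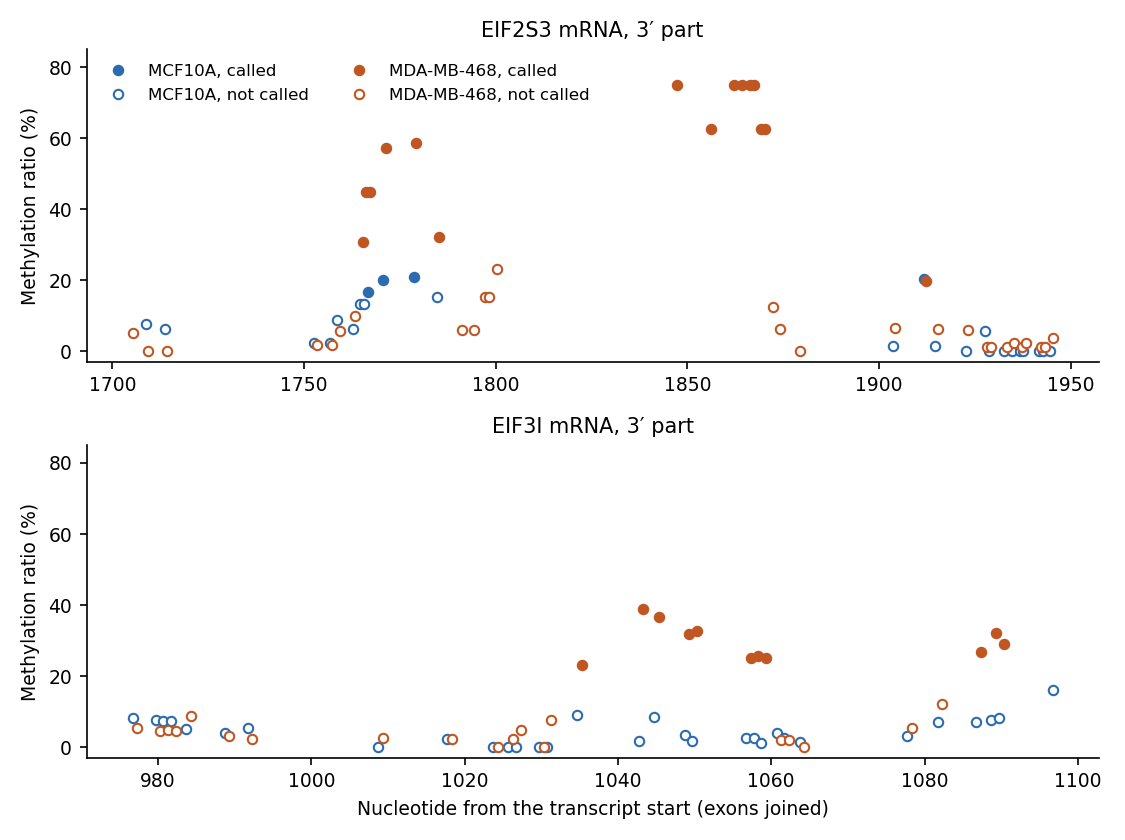
Methylation ratio (percent) of each cytosine covered at least 10 times in the 3′ parts of EIF2S3 (upper panel) and EIF3I (lower panel), by nucleotide from the transcript start, in MCF10A (blue) and MDA-MB-468 (orange); filled circles were called m5C and open circles were not. The cytosines of EIF3I called in MDA-MB-468 lie at 23.3% to 38.9% there and at 1.30% to 9.09% in MCF10A, where none was called.

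In the genes of eIF4F and its helicase partners, 14 of 2798 cytosines (0.50%) were called in MCF10A against 2 of 1526 (0.131%) in MDA-MB-468. Over all mRNA 0.847% and 0.73% were called. EIF4G1, the scaffold that joins the cap-binding protein to eIF3, was the most widely covered member, with 1281 and 1010 cytosines, and had 6 and 1 m5C sites. Of the 6 sites, 4 lay side by side in the 3′UTR from nucleotide 5158 to 5163, at 25% to 33.3% in MCF10A with coverages of 15 to 17, and at 0% to 9.09% in MDA-MB-468 with coverages of 11 to 14. Its best covered site, at nucleotide 3448 in the CDS, had 5 of 25 counts in MDA-MB-468 and 2 of 34 in MCF10A. EIF4G2, a relative that cannot bind the cap-binding protein and whose mRNA starts at a GUG codon, had 8 sites in MCF10A, 6 of them from nucleotide 434 to 450 with 21.1% to 33.3%. The best covered had 4 of 19 counts. The 6 cytosines had no entry in MDA-MB-468, where EIF4G2 had 1 other site with 4 of 10 counts. EIF4G3, with 371 covered cytosines in MCF10A, had none, and neither had the helicase genes EIF4A1 and EIF4A2, their helpers EIF4B and EIF4H, or EIF4E2.

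The genes that hold back the cap-binding protein had their m5C in EIF4EBP2 and EIF4EBP1. In EIF4EBP2 6 cytosines of the 5′UTR between nucleotides 209 and 216 were called in MCF10A, at 54.5% to 75% with coverages of 11 and 12. The best supported, at nucleotide 213, had 9 of 12 counts. In MDA-MB-468 5 of the 6 positions had coverages of 5 or 6, too few to count, with ratios of 20% to 66.7%. The pooled ratio of the whole gene was 5.25% in MCF10A against 1.04% in MDA-MB-468, over 139 and 99 cytosines, of which the m5C cytosines were part in MCF10A only. EIF4EBP1 on chromosome 8 had 1 site in each line, not the same one. In the 5′UTR 5 of 29 counts (17.2%) were unconverted in MCF10A, where MDA-MB-468 had 1 of 32, and in the 3′UTR 15 of 244 (6.15%) in MDA-MB-468 and 0 of 33 in MCF10A. EIF4EBP3 and EIF4ENIF1, which encodes the carrier that takes the cap-binding protein into the nucleus, had none.

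Of the factors that act at subunit joining or later, EIF5A, EIF5B and EIF6 had m5C sites. EIF5A encodes the hypusine-bearing factor that also acts in elongation. It had 5 sites in the 5′UTR in MCF10A, between nucleotides 51 and 85, at 8.89% to 15.9% with coverages of 61 to 90, and the best covered had 8 of 90 counts. The same 5 cytosines had 0% to 9.68% in MDA-MB-468, where another, at nucleotide 48, had 5 of 30 counts (16.7%) and was called. EIF5A and its retrocopy EIF5AL1 share reads that may be split between them. EIF5B, the GTPase that joins the subunits, had 1 site in the CDS with 5 of 16 counts in MCF10A. EIF6, which keeps the subunits apart, had 3 sites in the CDS in MDA-MB-468 with 14.7% to 20.7%, the best covered with 6 of 36 counts, and 1.19% to 2.88% in MCF10A. The EIF6 sites are the only called cytosines of initiation factors that also lie on same-strand exons of another gene, among 450 such cytosines in MCF10A against 266 in MDA-MB-468.

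Pooled gene levels spread to both sides of the background. Whether they did so more than those of other protein-coding genes was not tested. The intervals treat counts that share reads as independent and are too narrow. Of 43 genes with at least 50 covered cytosines in MCF10A, EIF1 among them, the 95% Wilson interval of the pooled ratio lay above the background in 16 and below it in 8. In MDA-MB-468 these numbers were 13 and 6 of 29. Among the 30 and 20 of them without an m5C site the pooled ratio ranged from 1.04% to 4.45% in MCF10A, and the corresponding range of MDA-MB-468 was 0.437% to 4.94%. EIF3L, an eIF3 subunit, had the highest of these in MDA-MB-468, 4.94% over 68 cytosines, with 2.38% over 268 cytosines in MCF10A. EIF4A3, the helicase of the exon junction complex, and EIF1AD, which are named for the family but act elsewhere, together gave 0 calls in 281 cytosines of MCF10A and 336 of MDA-MB-468, which allows up to 1.07% and 0.893%.

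**Figure D4:**
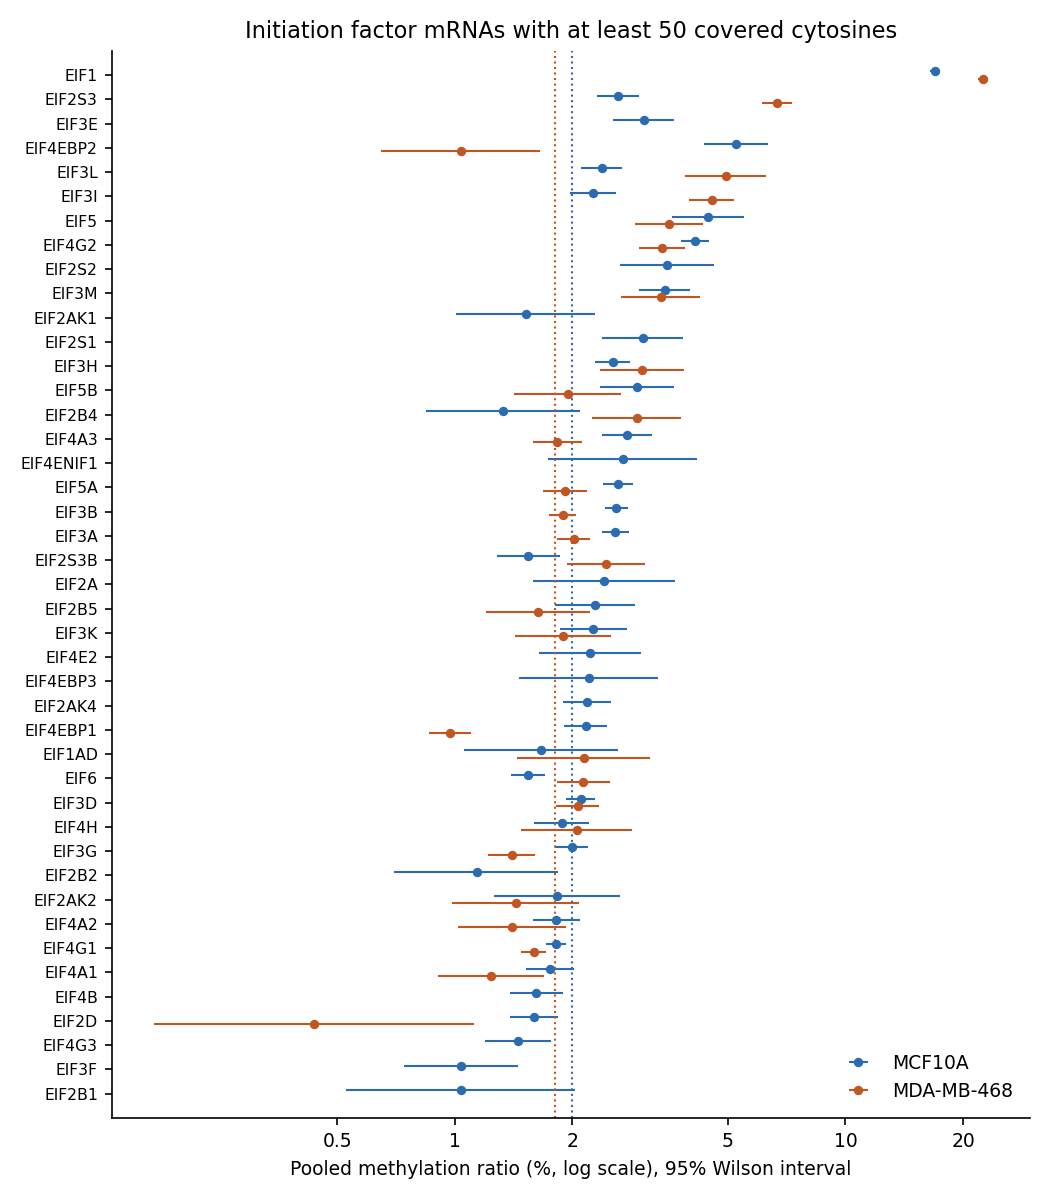
Pooled methylation ratio (percent, log scale) of each initiation factor mRNA with at least 50 covered cytosines, with 95% Wilson intervals that cover counting error only, in MCF10A (blue) and MDA-MB-468 (orange); the dotted lines are the backgrounds of 1.99% and 1.81%. EIF1 stands at 17% and 22.5%, and the next highest value is 6.69% for EIF2S3 in MDA-MB-468.

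The libraries were compared at the 5573 cytosines of initiation factor mRNAs that were covered in both, by Fisher's exact test at each site, two-sided and with Benjamini-Hochberg adjustment over all 812729 such cytosines. The test compares 2 libraries, not replicated conditions. Of the 5573, 3 had a higher ratio in MDA-MB-468 and 0 a lower one, where 0.0202% and 0.0691% of all cytosines passed in these directions. At an unadjusted p below 0.05 by the same test 41 of the 5573 were higher and 18 lower, while over all 812729 cytosines 3248 were higher and 6036 lower, the opposite order. Of the 41, EIF3I and EIF6 held 10 each and EIF2S3 and EIF3L 5 each. Of the 18, EIF3A and EIF3B held 5 each and EIF4EBP1 4. Sites of 1 gene may share reads, so these counts do not give a direction of the family as a whole. The 3 that passed were all in the EIF3I 3′UTR. At one of them 1 of 55 counts (1.82%) was unconverted in MCF10A against 14 of 36 (38.9%) in MDA-MB-468, with an adjusted p of 0.00592. At another the counts were 1 of 62 (1.61%) and 15 of 46 (32.6%), with an adjusted p of 0.00921. At the last they were 1 of 77 (1.30%) and 12 of 48 (25%), with an adjusted p of 0.0415. These cytosines lie within a span of 17 nt, may share reads, and lie in sequence with many near copies in the genome, whose part in the result was not tested. The EIF2S3 sites of nucleotides 1765 to 1785 differed by 16.9 to 37.7 percentage points and did not pass, with an adjusted p of 1 at each. When only cytosines called in at least 1 line were tested, 11 were higher in MDA-MB-468, of which 7 were in EIF3I, 3 in EIF2S3 and 1 in EIF6, and 1 in EIF3B was lower. Without cytosines of a pairing probability over 0.5, 1 was higher.

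Calls were shared between the lines mostly through EIF1. At the cytosines covered in both, 87 were called in MCF10A against 90 in MDA-MB-468, and 68 in both, which is 78.2% of the first list and 75.6% of the second. Of these 68, 64 were in EIF1 and 4 in EIF2S3. With EIF1 left out after its calls were seen, the 4 shared sites were 17.4% of 23 and 15.4% of 26. Over all mRNA the shares were 47.7% and 63.4%. At the same cytosines the pooled ratio without EIF1 was 2.10% in MCF10A against 1.94% in MDA-MB-468.

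Most m5C sites stood in groups. Another m5C site lay within 10 nt of 90.2% of the sites in MCF10A against 92.9% in MDA-MB-468, and of 78.9% and 80.0% without EIF1, against 86.5% and 86.8% over all mRNA. Joined at this distance, the sites formed 22 stretches in MCF10A against 13 in MDA-MB-468. Of these, 9 and 6 had at least 3 sites and held 108 and 92 of all m5C sites, and 12 and 7 were single sites. In sequence context, 67.2% of the sites in MCF10A against 75.8% in MDA-MB-468 had another cytosine next to them, while 49.9% of all covered cytosines of these genes did. Over all mRNA 74.8% and 75.9% of the m5C sites had one, so the shares of initiation factors were not above the general ones. In EIF1 the share was 87.7% and 89.1%, and without EIF1 43.9% and 51.4%. CNGGG and CTCCA were searched on the transcript strand with the cytosine as the starting letter. CNGGG, known from NSUN2, began at 3 of the 122 sites in MCF10A and at 0 of the 99 in MDA-MB-468, and at 2.44% and 2.66% of all covered cytosines of these genes. Over all mRNA it began at 8.19% and 8.73% of the m5C sites. EIF1, with most of the calls, had only 1 covered cytosine in CNGGG in each line, and it was not called. Without EIF1, CNGGG began at 3 of 57 sites (5.26%) in MCF10A and at 0 of 35 in MDA-MB-468. It began at 2.50% and 2.74% of the covered cytosines of these other genes. CTCCA, known from NSUN6, began at none of the sites and at 0.524% and 0.528% of the covered cytosines. Over all mRNA it began at 0.459% and 0.399% of the m5C sites, so its absence among 122 and 99 sites says little.

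The m5C sites of EIF1 had lower predicted pairing than those of the other genes. The pairing probability of each cytosine was computed at 70 degrees in a sliding window of 300 nt. The EIF1 sites had a median of 0.242 in MCF10A against 0.252 in MDA-MB-468, and 5 in each line were above 0.5. The m5C sites of the other genes had a median of 0.735 and 0.699, with 75.4% and 74.3% above 0.5. Cytosines of these genes that were not called had 0.563 and 0.577, with 56.9% and 58.4% above 0.5. The part of folding in the calls was not tested. Leaving out all cytosines above 0.5 kept 60 EIF1 sites and 14 others in MCF10A, and 59 and 9 in MDA-MB-468.

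**Figure D5:**
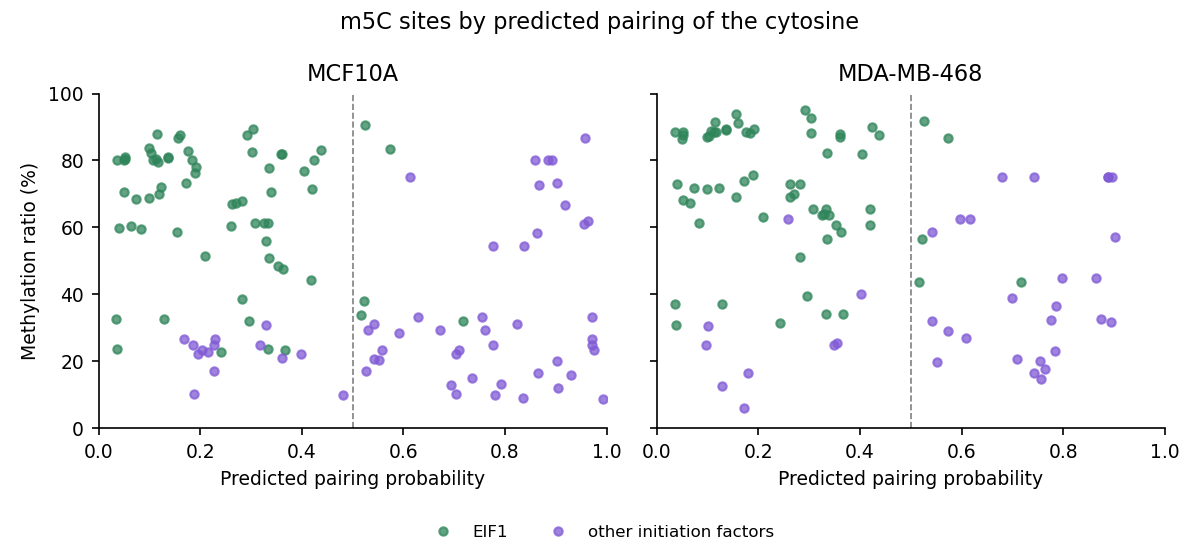
Methylation ratio (percent) of each m5C site of initiation factor mRNAs against its predicted pairing probability, for EIF1 (green) and the other genes (purple), in MCF10A (left) and MDA-MB-468 (right); the dashed line marks 0.5. Of the EIF1 sites 5 lie to the right of the line in each line, against 43 of 57 and 26 of 35 of the other sites.

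Coverage differed between initiation factors and the rest. The median coverage of their cytosines was 27 in MCF10A against 25 in MDA-MB-468, above the 18 of all mRNA in each line. Among cytosines covered 10 to 19 times, 1.11% of those outside EIF1 were called in MCF10A against 0.404% in MDA-MB-468, and among those covered at least 100 times 0% and 0.231%. Over all mRNA the share was 0.687% and 1.56% in these classes in MCF10A, and 0.551% and 1.51% in MDA-MB-468. At the coverage minimum, the 490 cytosines of initiation factors with a coverage of 10 had a pooled ratio of 3.14% in MCF10A, and the 623 with a coverage of 9, which were left out, had 4.39%. In MDA-MB-468 the values were 3.24% for 343 cytosines and 4.49% for 366.

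Other genes of the translation machinery were set beside them. Of 18 further genes of initiation and its regulation, fixed as a list, all were covered in MCF10A against 13 in MDA-MB-468, and 6 and 5 had m5C. Their share of called cytosines was 70 of 5573 (1.26%) and 28 of 4025 (0.696%). LARP1, a binding protein of mRNAs with a terminal oligopyrimidine tract, held 39 and 17 of these sites. The poly(A)-binding genes PABPC1 and PABPC4 had 3 and 13 sites in MCF10A and 5 and 0 in MDA-MB-468. MCTS1, which encodes a partner of DENR in reinitiation, had a pooled ratio of 17.1% over 15 cytosines in MCF10A without a single call, at a median coverage of 12. Ribosomal protein mRNAs had 94 of 6113 cytosines called (1.54%) in MCF10A against 84 of 4794 (1.75%) in MDA-MB-468. Aminoacyl-tRNA synthetase mRNAs had 21 of 8453 (0.248%) and 31 of 5716 (0.542%). Over all mRNA the shares were 0.847% and 0.73%. The median coverage was 84 and 46 in ribosomal protein mRNAs and 22 and 20 in synthetase mRNAs, against 27 and 25 in initiation factors. A call needs a lower ratio at a higher coverage, and the part of coverage in these shares was not tested. In ribosomal protein mRNAs the 5′UTR share was 4.0% and 5.41%, between that of initiation factors with EIF1 and that without it.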

How the data were processed

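RNA BS-Seq data were used from MCF10A and MDA-MB-468, 1 library each. According to the methods, reads were trimmed with Trim Galore, aligned to hg19 with MeRanGs and called with MeRanCall of MeRanTK, with biased read ends, low base qualities and excess duplicates left out. The processing notes of the submitters name Trim Galore and Bismark. The authors deposited, per cytosine, whole-number counts of unconverted and converted reads without normalization. Their lowest coverage is 5, and they hold 76098976 counts at 3146911 cytosines in MCF10A and 90960018 at 3489803 in MDA-MB-468. They include introns, and no structure filter has been applied.

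Kept were cytosines covered at least 10 times that lay on same-strand exons of basic transcripts (GENCODE release 44, GRCh37 coordinates) or on mitochondrial RNA. All nuclear positions fell on a reference cytosine. Unconverted counts were compared with the library background by Fisher's exact test, one-sided, and between libraries by its two-sided form, with Benjamini-Hochberg adjustment at 0.05 over all kept cytosines. A cytosine in several regions counted as 5′UTR before CDS before 3′UTR. Nucleotide numbers refer to 1 representative transcript per gene. Pairing probabilities came from ViennaRNA 2.7.2 (window 300 nt, pairing distance 150 nt, 70 degrees), as the highest over 234 basic transcripts. Intervals are Wilson intervals at 95%, and a count of 0 was taken to allow up to 3, with cytosines treated as independent. Scripts used pysam 0.24.0, numba 0.67.0, pandas 2.3.3, scipy 1.17.1 and numpy 2.4.6 under Python 3.11.15, and were tested on simulated data. Alternatives changed the coverage minimum, background, test, ratio, folding limit, region order and gene copies. Members and lists were chosen with earlier results of these data known. Genes with at least 3 m5C sites in either line, their best covered site, the 12 best covered sites called in both lines at a ratio of at least 0.2, the cytosines that differ between lines and the 10 genes with the most covered cytosines were named by rule. Other genes were named to account for every member. The sequences of other windows are not reported here.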

Additional observations from a re-analysis of the deposited data

How the results depend on the processing

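Of 184 values recomputed under another setting, 144 stayed within the 95% interval of a share, or within 1.5 times a count. All values for the other backgrounds, the binomial test, a pairing limit of 0.9 and sites on exons of another gene left out were among them. Without cytosines of a pairing probability over 0.5, MCF10A had 74 m5C sites in 5 genes, the share called was 1.78% in MCF10A against 2.65% in MDA-MB-468, the 5′UTR share 16.2% and 28.1%, the 3′UTR share 0% and 0.993%, the pooled ratio 3.91% and 4.64%, the share of MCF10A sites within 10 nt of another 94.6%, and 1 site was higher in MDA-MB-468. Without EIF1, a setting chosen after seeing the data, 57 and 35 sites were left, 0.613% and 0.599% of cytosines, with 4 called in both lines, a 5′UTR share of 1.43% and 0.213%, 78.9% and 80.0% within 10 nt, and a pooled ratio of 2.21% and 2.0%. A minimum coverage of 20 gave a 5′UTR share of 14.7% and 26.2%, a CDS share of 0.322% and 83.5% within 10 nt in MCF10A, and 2.40% called in MDA-MB-468. Counting CDS before 5′UTR gave a 5′UTR share of 11.3% and 16.8%, and 1 representative transcript per gene 12.8% and 18.2%. With a ratio of at least 0.2, 95.4% and 96.7% were within 10 nt. Leaving out genes with near-identical copies, EIF2S3 among them, lowered the 3′UTR share in MDA-MB-468 to 0.863%. The pooled ratio was 3.07% in MCF10A over cytosines covered in both lines, and 3.07% and 3.31% as the mean of the site ratios. Testing only cytosines called in at least 1 line gave 11 higher and 1 lower in MDA-MB-468, the former in EIF3I, EIF2S3 and EIF6 and the latter in EIF3B. The cause of these changes was not tested. No paired analysis was possible because each line has 1 library and the labels carry no replicate numbers. A coverage near 10 hides ratios below 40%, and 1 library per line gives no spread between cultures.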
